A study of Rattus norvegicus with 6 samples.

Results

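The thioredoxin and peroxiredoxin system was examined through 10 genes in renal cortex from male Sprague-Dawley rats: the thioredoxin Txn1, the thioredoxin reductases Txnrd1 and Txnrd2, the thioredoxin-binding protein Txnip, the peroxiredoxins Prdx1, Prdx2, Prdx3, Prdx5 and Prdx6, and the sulfiredoxin Srxn1. The genes were chosen by name, with earlier results of these data known, from a total of 15284 genes that the array's RefSeq accessions name. All 10 were found, through 15 probes that were well above background on all 6 arrays, and all 10 are among the 11748 genes tested. The brightest probe stood for each gene. The study compared 3 rats given corn oil with 3 rats given 2-amino-4-nitrophenol, an aromatic nitro compound known from hair colouring, at 750 mg/kg/day. Both groups were dosed for 4 weeks. All the animals were bought at 5 weeks of age and kept on the same basal diet. The labels give neither the route of dosing nor the vehicle of the treated rats, and describe the 3 animals of a group as biological replicates. Total RNA of each animal was hybridised to 1 single-colour array.

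Thioredoxin is a small protein that reduces disulfides in its partners and is itself reduced by thioredoxin reductase, a selenoprotein that draws on NADPH. Peroxiredoxins are peroxidases that break down hydrogen peroxide and organic peroxides with a reactive cysteine, and most of them depend on thioredoxin to be reset. Sulfiredoxin repairs typical peroxiredoxins whose cysteine was overoxidised, and Txnip binds reduced thioredoxin and blocks it. The cytosolic branch (Txn1, Txnrd1, Prdx1, Prdx2, Prdx6) and the mitochondrial branch (Txnrd2, Prdx3 and part of Prdx5) have separate enzymes, and Txnrd1, Srxn1 and Prdx1 are textbook targets of the transcription factor NRF2, which binds antioxidant response elements. Proximal tubule cells of the renal cortex are rich in mitochondria and handle many foreign compounds.

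Upstream stretches of 3 genes are shown because 2 of them hold the core of the antioxidant response element and the third, Srxn1, had the largest difference between the groups. Each is the 250 bases before an annotated start on the gene's strand, from RefSeq, build GRCr8; capitals mark a match to TGACNNNGC on either strand, where N is any base. The stretch of Prdx1 is chr5:135383656-135383905 (plus strand), that of Txnrd1 chr7:22755905-22756154 (minus strand) and that of Srxn1 chr3:161064562-161064811 (plus strand).
Prdx1: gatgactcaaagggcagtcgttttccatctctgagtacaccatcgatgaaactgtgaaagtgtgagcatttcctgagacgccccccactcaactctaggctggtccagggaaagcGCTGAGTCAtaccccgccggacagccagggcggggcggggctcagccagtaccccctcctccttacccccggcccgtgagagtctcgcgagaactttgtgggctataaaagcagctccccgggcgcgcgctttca
Txnrd1: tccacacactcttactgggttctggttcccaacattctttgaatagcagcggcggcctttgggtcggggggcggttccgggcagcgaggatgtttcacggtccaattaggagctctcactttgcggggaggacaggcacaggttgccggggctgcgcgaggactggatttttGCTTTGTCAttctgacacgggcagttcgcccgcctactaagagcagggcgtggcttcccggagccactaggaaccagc
Srxn1: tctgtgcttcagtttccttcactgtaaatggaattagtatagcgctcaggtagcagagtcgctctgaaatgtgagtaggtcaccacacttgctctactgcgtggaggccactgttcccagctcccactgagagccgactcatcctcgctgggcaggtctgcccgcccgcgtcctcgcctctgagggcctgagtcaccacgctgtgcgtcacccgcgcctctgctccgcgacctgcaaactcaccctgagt
The matches of Prdx1 and Txnrd1 lie on the opposite strand and begin 135 and 78 bases before the start. The other annotated start of Txnrd1 had no match. The RefSeq table gave a window, from 250 bases before to 50 after a start, for 8 of the 10 genes (not Txnip and Prdx6). In that window 3 of the 8 had a match, namely Prdx1, Txnrd1 and Prdx5, whose match begins 1 base before the start. Of the 9597 tested genes with a window, 1432 (14.9%) had one, as did 12.1% of all 33469 windows. A match only says that these letters are present, and was not measured as binding.

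Txn1, Srxn1 and all 5 peroxiredoxins lay higher on every treated array than on any corn oil array, which held for 4 of these 7 genes with quantile normalization (12.4% of all genes tested) and for 1 with the arrays scaled on spike-in controls (1.32% of all genes). Txnrd1, Txnrd2 and Txnip overlapped between the groups. These 7 of 10 compare with 20.1% of all genes tested, the share whose treated arrays all lay higher. That share was larger among genes of like signal, at 23.7% to 53.5% in the bands given below. No single gene of the system passed the threshold: 0 of 10 had an adjusted p under 0.05 in limma, where 0.0255% of the genes tested passed in either direction. At an unadjusted p under 0.05 in limma there were 7 of 10, all of them higher, against 14.3% of all genes that were higher at that level. The median difference of the 10 genes was 0.39 on the log2 scale, against 0.04 over all genes. By array, the median of the 10 genes as differences from the corn oil means was 0.33, 0.40 and 0.40 on treated replicates 1, 2 and 3. All values below are log2 signals relative to the 75th percentile of the array, differences are treated minus corn oil, and errors of differences are standard errors from limma with n = 3 per group. In whole tissue, a change in the share of a cell type and a change of RNA within its cells cannot be told apart.

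**Figure D1:**
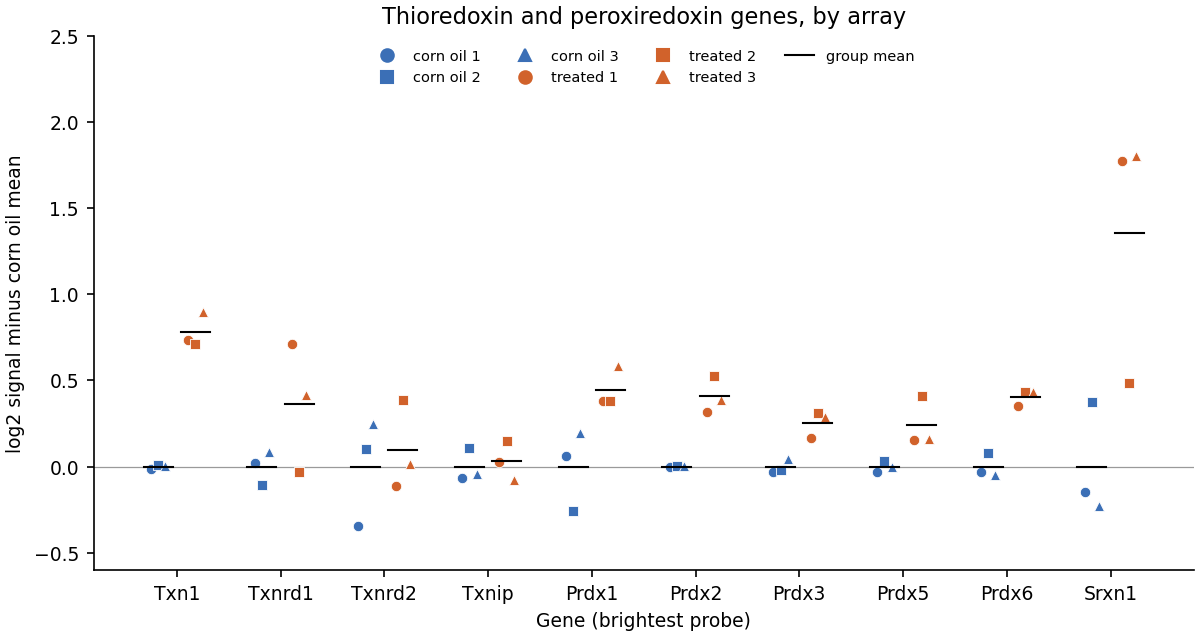
Log2 signal of the brightest probe of each of the 10 genes, minus the gene's corn oil mean, with 1 point per array (blue, corn oil; orange, treated; the symbol gives the replicate) and a bar at each group mean. For Txn1, Srxn1 and the 5 peroxiredoxins the treated points all lie above the corn oil points at this scaling. So do those of 20.1% of all genes tested, and of 53.5% among the brightest 10%. After quantile normalization this holds for 4 of the genes shown (12.4% of all genes) and with spike-in scaling for 1 (1.32%). Treated replicate 2 is the lowest treated array for Txnrd1 and Srxn1.

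Arrays of the treated rats were somewhat dimmer. Their processed signals had a 75th percentile of 564 to 685, lowest for treated replicate 2, against 743 to 852 for corn oil, and 61.6% to 66.3% of their probes were well above background, against 68.1% to 70.9% for corn oil. Corn oil replicate 2 was alone on its slide. The other 5 arrays shared a slide, with corn oil in its first row and treatment in its second. Row and treatment cannot be told apart on that slide. Markers of the proximal tubule (6 of 6 well above background on all arrays, summed linear level 932 to 1014 on corn oil and 974 to 1030 on treated arrays) and of podocytes (4 of 4) were present, as the renal cortex label has it. Summed levels of leukocyte markers (2.96 to 3.38 on corn oil, 2.71 to 3.13 on treated arrays) and of endothelial markers (33.6 to 35.5 and 33.6 to 34.1) overlapped between the groups. Of 13 marker lists, the summed level of 3 did not overlap at this scaling. For the thick ascending limb, where 1 of 2 listed genes (Umod) was named on the array, it was 262.5 to 287.3 on corn oil and 346.1 to 442.8 on treated arrays, and Umod overlapped after quantile normalization and with spike-in scaling. For the distal tubule (2 of 2 genes) it was 22 to 28.5 on corn oil and 16.2 to 19.8 on treated arrays, and 1 of the 2 genes lay lower on every treated array at this scaling and after quantile normalization, and both with spike-in scaling. The erythroid list is given beside Prdx2. A summed level can hide its single genes. Of the 3 collecting duct genes, 2 lay lower on every treated array at this, quantile and spike-in scaling, and 0 higher. Of the 6 proximal tubule genes, 2 lay higher on every treated array and 1 lower at this scaling. Those counts were 0 and 5 after quantile normalization and 0 and 3 with spike-in scaling. Of all genes, 10.1%, 13.6% and 25.5% lay lower at this, quantile and spike-in scaling. The part of these segments in the differences of the 10 genes was not tested.

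Txn1, the cytosolic thioredoxin, had the lowest p of the system. Its log2 values were 6.82, 6.84 and 6.83 on corn oil replicates 1, 2 and 3 and 7.57, 7.54 and 7.73 on the treated ones. The lowest treated array stood 0.70 above the highest corn oil array, with an SD of 0.01 among the corn oil arrays and of 0.10 among the treated ones. The difference was 0.78 ± 0.08 (1.72-fold; adjusted p = 0.0799 in limma), and only 8 of the genes tested had a lower p. It missed the threshold, and passed it with trend and robust variance settings (adjusted p = 0.0352), after normexp background correction (0.0473) and without treated replicate 2 (0.0437), over a range of 0.0352 to 0.312 in 17 alternatives. Its size depended on the scale: 0.46 with quantile normalization and likewise 0.46 with spike-in scaling.

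The reductases that serve thioredoxin showed less. Txnrd1, the cytosolic reductase, had log2 values of 1.19, 1.07 and 1.26 with corn oil and 1.88, 1.14 and 1.59 with treatment. Treated replicates 1 and 3 lay above all corn oil arrays, while replicate 2 lay among them. The difference of 0.37 ± 0.19 did not pass (adjusted p = 0.312, 95% interval -0.10 to 0.83), and it was 0.56 without treated replicate 2 and 0.19 without treated replicate 1 (adjusted p = 0.143 to 0.925 over the alternatives). The 3 dimmer probes of Txnrd1, which match the same transcript, gave 0.22, 0.24 and 0.20, and on each of them treated replicate 2 was below the lowest corn oil array. All 4 probes thus put the treated arrays in the same order.

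Txnrd2, the mitochondrial reductase, had log2 values of 1.15, 1.60 and 1.75 with corn oil and 1.39, 1.89 and 1.52 with treatment. The groups overlapped, and corn oil replicate 1 was the lowest of all. The difference was 0.10 ± 0.20 (adjusted p = 0.804, 95% interval -0.39 to 0.58), and its other probe gave 0.07. The interval leaves room for a difference as large as that of Txnrd1. The sign turned to -0.22 with spike-in scaling and to -0.08 and -0.05 without corn oil replicate 1 or treated replicate 2.

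**Figure D2:**
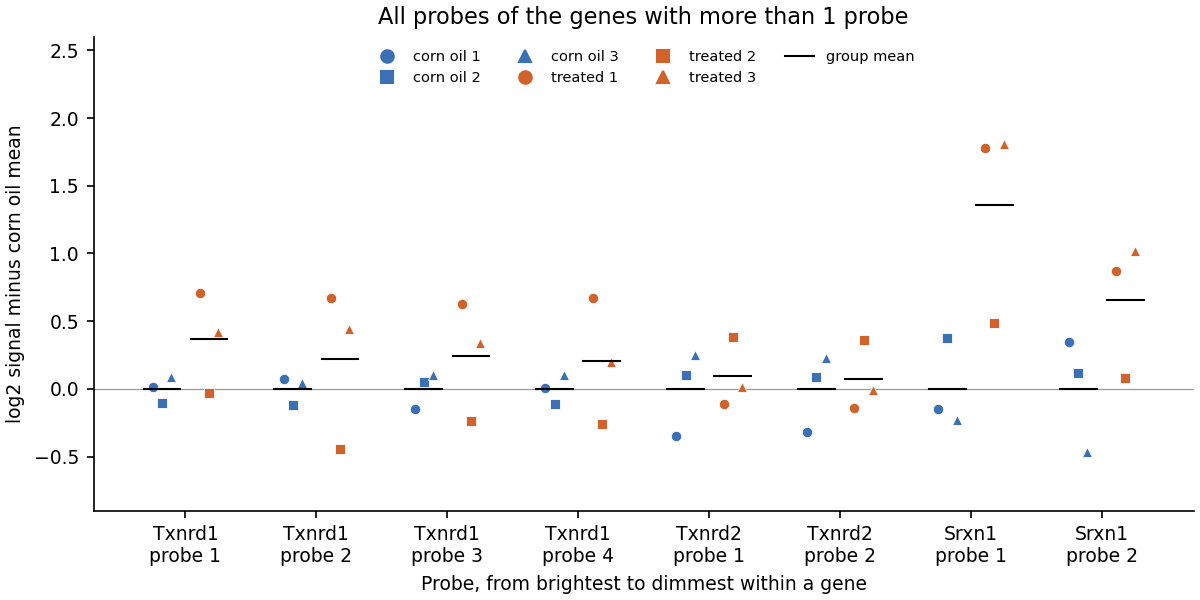
Log2 signal minus the corn oil mean for the 4 probes of Txnrd1, the 2 probes of Txnrd2 and the 2 probes of Srxn1, by array, with a bar at each group mean. Treated replicate 2 is the lowest treated array on all 4 Txnrd1 probes and both Srxn1 probes, and the highest on both Txnrd2 probes.

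Txnip, the inhibitor of thioredoxin and a gene known to respond to glucose, was nearly level. Its log2 values were 3.57, 3.74 and 3.59 with corn oil and 3.66, 3.78 and 3.55 with treatment, so that the treated range enclosed the corn oil range. The difference was 0.03 ± 0.10 (adjusted p = 0.868 in limma; 95% interval -0.20 to 0.27, which is narrower than that of Txnrd1 or Txnrd2). It was -0.12 with quantile normalization, -0.02 with normexp correction and -0.29 with spike-in scaling.

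Among the peroxiredoxins, the cytosolic Prdx2 and Prdx6 had the lowest p. Prdx2, a typical peroxiredoxin, had log2 values of 4.93, 4.94 and 4.93 with corn oil and 5.25, 5.46 and 5.32 with treatment. The groups were 0.31 apart, with an SD of 0.005 among the corn oil arrays and of 0.11 among the treated ones. The difference was 0.41 ± 0.08 (adjusted p = 0.118 in limma), 0.20 after quantile normalization and 0.09 with spike-in scaling. Prdx2 is also among the most abundant proteins of red blood cells, and markers of erythroid cells were also higher at this scaling: 5 of 7 listed markers were measured, all 5 were higher on every treated array than on any corn oil array, and their summed linear level was 521 to 767 on corn oil and 969 to 1433 on treated arrays. After spike-in scaling 1 of the 5 (1.32% of all genes) and after quantile normalization 2 of the 5 (12.4%) still lay higher on every treated array. The share of all genes was 20.1% at this scaling. The part of erythroid cells in the Prdx2 difference was not tested.

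Prdx6, which reduces phospholipid peroxides and uses glutathione rather than thioredoxin, had log2 values of 3.82, 3.93 and 3.80 with corn oil and 4.20, 4.28 and 4.28 with treatment. The treated animals lay close together, with an SD of 0.05. The difference was 0.41 ± 0.08 (adjusted p = 0.114 in limma), 0.23 after quantile normalization and 0.09 with spike-in scaling. Prdx1, the other main cytosolic peroxiredoxin, had log2 values of 5.67, 5.35 and 5.81 with corn oil and 5.99, 5.99 and 6.19 with treatment. Corn oil replicate 2, the array on its own slide, was the lowest. The difference of 0.45 ± 0.14 (adjusted p = 0.164 in limma) became 0.32 within the slide shared by the other 5 arrays, 0.21 after quantile normalization and 0.13 with spike-in scaling.

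The peroxiredoxins of mitochondria had the smallest differences of the 5. Prdx3, which is located in mitochondria, had log2 values of 4.26, 4.27 and 4.34 with corn oil and 4.45, 4.60 and 4.58 with treatment. The difference of 0.25 ± 0.08 (adjusted p = 0.167 in limma) was 0.06 after quantile normalization and -0.07 with spike-in scaling. Prdx5, found in mitochondria, peroxisomes and the cytosol, had log2 values of 6.04, 6.10 and 6.06 with corn oil and 6.22, 6.47 and 6.23 with treatment. Treated replicate 2 was the highest. The difference was 0.24 ± 0.10 (adjusted p = 0.223 in limma), 0.16 without treated replicate 2, -0.002 after quantile normalization and -0.08 with spike-in scaling. Whether the 5 peroxiredoxins differed from one another in their response was not tested.

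Srxn1, which restores overoxidised peroxiredoxins, had the largest difference of the system and the least even one. Its log2 values were 0.84, 1.36 and 0.75 with corn oil and 2.76, 1.47 and 2.79 with treatment. Treated replicates 1 and 3 lay well above the corn oil arrays, while replicate 2 exceeded corn oil replicate 2 by 0.11. The difference was 1.36 ± 0.39 (2.56-fold; adjusted p = 0.149 in limma), and 75 of the genes tested had a larger one. Without treated replicate 2 it was 1.79 ± 0.20 and passed the threshold (adjusted p = 0.0472; 0.0472 to 0.374 over 17 alternatives). It was 1.15 without treated replicate 1, 1.13 without treated replicate 3 and 1.01 as the mean over probes, and passed under none of these. The other probe, dimmer but well above background, gave 0.66 ± 0.31 with overlapping groups, and put the treated arrays in the order 3, 1, 2 as well. Scaling moved the Srxn1 difference by less than its standard error, with 1.30 under quantile normalization and 1.04 under spike-in scaling. With spike-in scaling its groups overlapped.

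**Figure D3:**
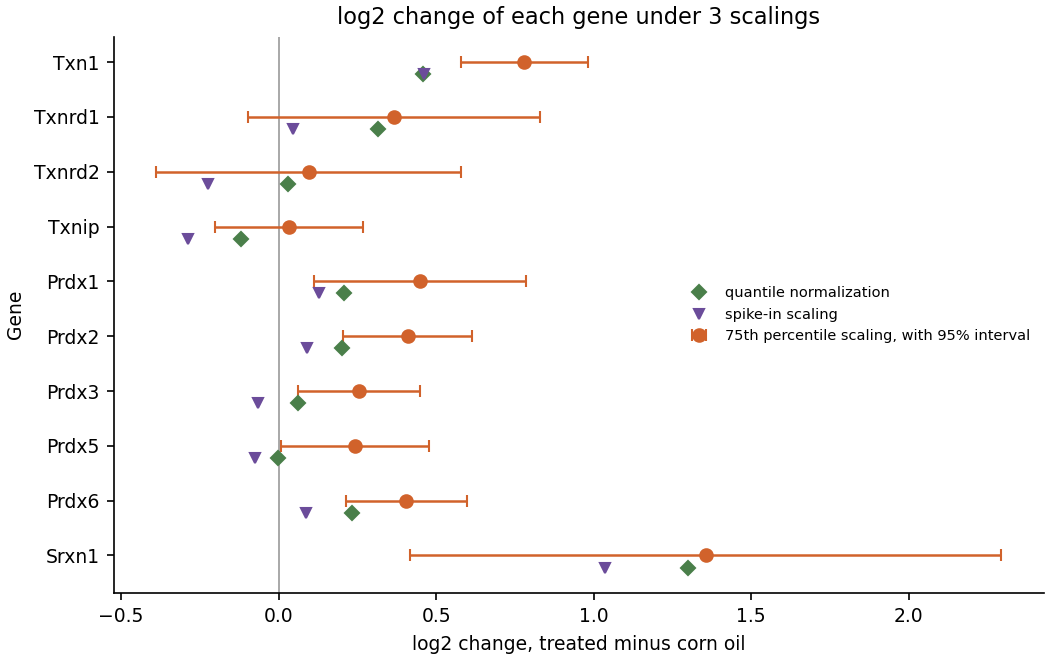
Log2 change of each gene, treated minus corn oil, at the 75th percentile scaling (orange, bar = 95% interval from limma), under quantile normalization (green) and under spike-in scaling (purple). Spike-in scaling moves all genes alike; Srxn1 and Txn1 have the largest values at 1.04 to 1.36 and 0.46 to 0.78, whereas Txnip turns negative under both alternatives, as does Prdx5 (-0.002 and -0.08), and Prdx3 and Txnrd2 turn negative with spike-in scaling.

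Treated replicate 2 took opposite places among the treated arrays for different genes. Relative to the corn oil mean, treated replicate 2 was at -0.03 for Txnrd1 and 0.48 for Srxn1, where replicates 1 and 3 were at 0.71 and 0.42 and at 1.78 and 1.80. For Prdx2, Prdx3 and Prdx5, replicate 2 was instead the highest treated array, at 0.53, 0.31 and 0.41, against 0.16 to 0.39 on the other treated arrays. It was also the highest for Txnrd2 (0.39, against -0.11 and 0.01) and Txnip (0.15, against 0.03 and -0.08). The median over all genes was highest on replicate 2 too, at 0.09 against 0.02 and 0.05. Txn1 had all treated arrays at 0.71 to 0.90. Treated replicate 2 was also the array with the lowest 75th percentile and the fewest probes well above background, and the part of array quality in this was not tested.

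Genes of this system are bright on the array, and bright genes tended to lie higher with treatment. Of the 10 genes, 5 (Txn1, Prdx1, Prdx2, Prdx3, Prdx5) were among the brightest 10% of tested genes, where the median log2 difference was 0.23 and 53.5% of genes lay higher on every treated array. Prdx6 and Txnip were in the next 10%, with a median of 0.13 and a share of 34.4%. Txn1, Prdx1, Prdx2 and Prdx6 lay above the median of their band and Prdx3 and Prdx5 close to it, while Txnip was lower. The 3 dimmer genes, Txnrd1, Txnrd2 and Srxn1, were in a band of signal, again 10% of the genes, with a median of 0.07 and a share of 23.7%. Quantile normalization brought the median of the brightest 10% to 0.0005. After it Txn1 and Prdx2, of the brightest 10%, and Prdx6 and Srxn1, of dimmer bands, still lay higher on every treated array. So did 12.4% of all genes. Spike-in scaling (7 control probes) moved the differences of all genes alike, by -0.32. Relative to the median of all genes, the differences were 0.74 for Txn1, 1.31 for Srxn1 and 0.20 to 0.40 for the peroxiredoxins at the main scaling, values that a constant added to each array leaves as they are.

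**Figure D4:**
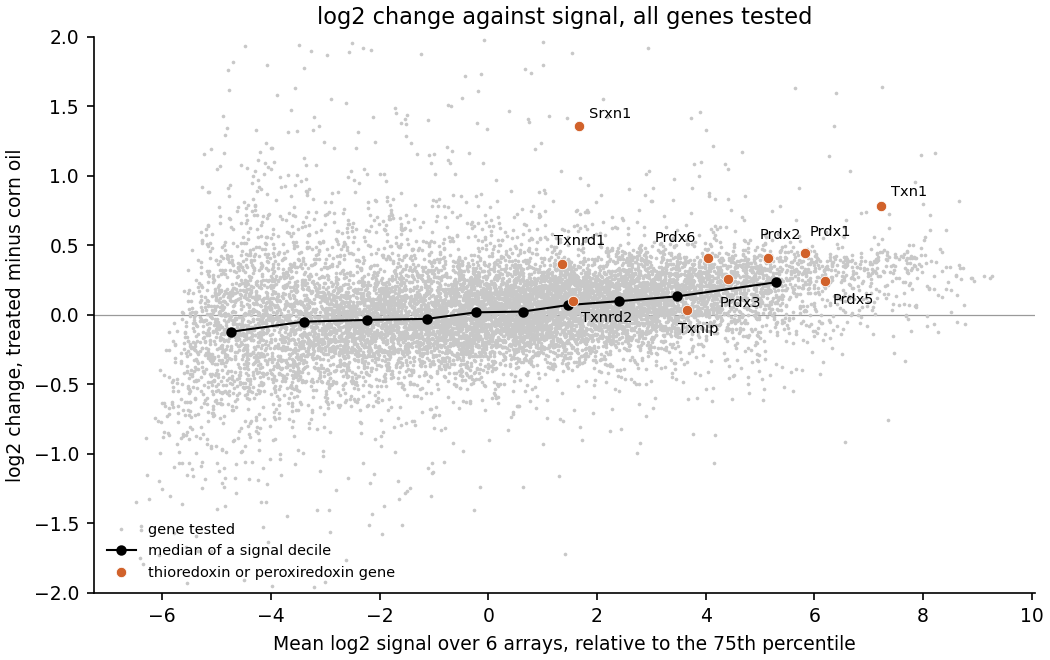
Log2 change against mean log2 signal for the genes tested (grey; 28 genes beyond the vertical range of -2 to 2 are not drawn), with the median of each 10% of the genes by signal (black) and the 10 genes of the system (orange). The black line climbs from -0.12 to 0.23; Srxn1 and Txn1 lie far above it, and Prdx3, Prdx5 and Txnrd2 lie near it.

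Genes that work beside the system were taken from a list of 39: further thioredoxin-like proteins, glutaredoxins, methionine sulfoxide reductases, sestrins, ribonucleotide reductase, selenoprotein synthesis factors, and the arrestin-domain relatives and regulators of Txnip. Of these, 30 were named on the array and tested. None passed (0 higher, 0 lower; adjusted p under 0.05 in limma), as 0 did under each of the alternatives tried, and their median log2 difference was 0.11 (0.02 after quantile normalization, -0.21 with spike-in scaling). The treated arrays all lay higher for 6 of the 30 and all lower for 3, against 20.1% and 10.1% of all genes. At an unadjusted p under 0.05 in limma, 5 of the 30 were higher and 2 lower, against 14.3% and 7.29% of all genes. The counts without overlap were 4 and 6 after quantile normalization, against 12.4% and 13.6% of all genes, and 0 and 8 with spike-in scaling, against 1.32% and 25.5%.

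The 8 with the lowest p were as follows. Txnl1, a thioredoxin-like protein of the proteasome, had log2 values of 4.32, 4.43 and 4.47 on corn oil and 4.70, 4.78 and 4.79 on treated arrays, a difference of 0.35 ± 0.08 (adjusted p = 0.128 in limma; 0.15 after quantile and 0.03 with spike-in scaling). Glrx3, a glutaredoxin that handles iron-sulfur clusters, differed by 0.38 ± 0.09 (0.20 and 0.06 under the same alternatives). Gsr, which reduces oxidised glutathione with NADPH and is homologous to thioredoxin reductase, had 1.00, 0.97 and 1.07 on corn oil and 1.57, 1.07 and 1.53 on treated arrays. As with Txnrd1 and Srxn1, treated replicate 2 was the low treated array for Gsr and overlapped the corn oil arrays, and the difference was 0.37 ± 0.15 (adjusted p = 0.224 in limma; 0.05 with spike-in scaling). Msrb2, a mitochondrial methionine sulfoxide reductase, differed by 0.31 ± 0.10, and Secisbp2, which lets ribosomes read selenocysteine codons, by 0.17 ± 0.07; with spike-in scaling these were -0.01 and -0.15, and Secisbp2 was 0.004 as the mean of its probes. Sesn2, a stress-induced sestrin that limits mTORC1 signalling, was lower on every treated array, at 0.29, 0.50 and 0.53 on corn oil and 0.04, 0.20 and 0.10 on treated arrays (difference -0.33 ± 0.10, adjusted p = 0.162 in limma).

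Regulators known to drive Txnip transcription with glucose had differences of opposite sign at this scaling, and on opposite sides of the median of all genes (Mlx 0.24, Mlxipl -0.39) at this and at spike-in scaling, which moves both by -0.32. Mlxipl, which encodes ChREBP, had log2 values of -0.42, -0.28 and -0.12 on corn oil and -0.61, -0.62 and -0.64 on treated arrays, a difference of -0.35 ± 0.10 (adjusted p = 0.146 in limma). Its partner Mlx differed by 0.28 ± 0.09 (adjusted p = 0.169 in limma), or by -0.04 with spike-in scaling. The groups did not overlap for either at this scaling. Arrdc2 (0.11 ± 0.17) and Arrdc3 (0.04 ± 0.22), relatives of Txnip, overlapped, and so did the mitochondrial thioredoxin Txn2 (0.35 ± 0.17) and the peroxiredoxin of the endoplasmic reticulum, Prdx4 (0.11 ± 0.18). These last 4 were named for their kinship with the 10 genes, after their values were seen.

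**Figure D5:**
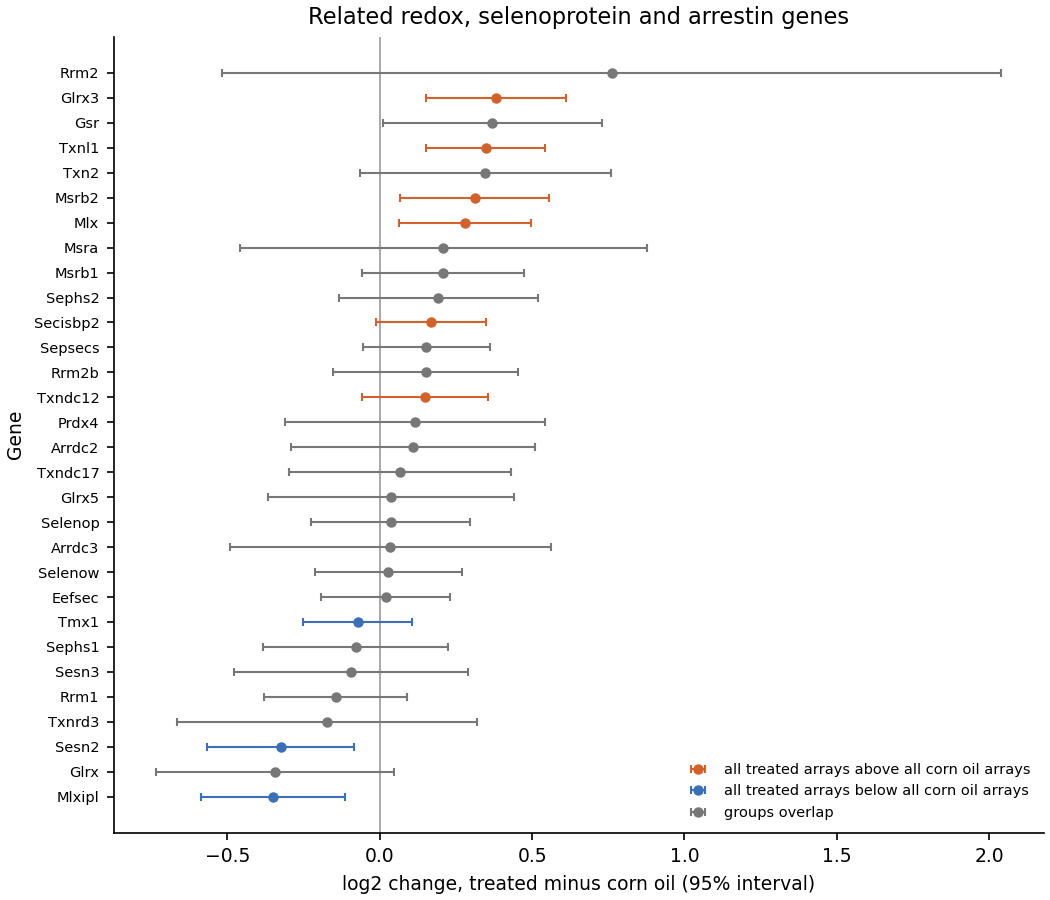
Log2 change, treated minus corn oil, with its 95% interval from limma, for the 30 tested genes of the wider list, coloured by whether the treated arrays all lay higher (orange, 6 genes), all lay lower (blue, 3 genes) or overlapped the corn oil arrays (grey). All points but Rrm2 lie within 0.4 of 0; with spike-in scaling 25 of the 30 are negative, as are 85.9% of all genes, and none lies higher on every treated array, against 1.32% of all genes.

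Among the tested genes most like Txnrd1 over the 6 arrays, by the root mean square difference of log2 values centred on the corn oil mean, were Gjb2 (0.027), a gap junction subunit, and Nampt (0.081), an enzyme of NAD synthesis. Gjb2 had 5.43, 5.31 and 5.45 on corn oil and 6.12, 5.41 and 5.80 on treated arrays, an order of the arrays that the choice by likeness fixes. Those most like Srxn1 were Gstm2 (0.169), a glutathione transferase, Rgs11 (0.221), a regulator of G protein signalling, and Slc39a4 (0.229), a zinc transporter. Gstm2 had 0.15, 0.49 and 0.16 on corn oil and 1.89, 0.75 and 1.74 on treated arrays, and cross-hybridisation with its close paralogs was not assessed. None of these 5 genes passed the threshold, with adjusted p from 0.120 to 0.278 in limma.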

How the data were processed

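Cy3 signals of 6 arrays were extracted with Agilent Feature Extraction 10.7.1.1, per the file headers (10.7 per the submitters' processing notes); the processed intensity deposited is linear, with background subtracted and spatial trends removed, and other deposited flags mark probes well above background or outlying. The value table the authors deposited holds a ratio to the array's 75th percentile; set against the scanner files, 0 of 6 columns matched the file of the same number and all 6 another file of the same group, so replicate numbers follow the scanner files.

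Processed intensities were put on a log2 scale and set relative to the 75th percentile of the 61657 non-control probes of each array. Outlier flags removed 64 probes, and 40894 were well above background on the 3 arrays of either group and were kept. Genes were named by matching RefSeq accessions to a GRCr8 gene table (27460 probes), and the brightest kept probe stood for a gene. The group difference was fitted with limma 3.58.1 (lmFit, eBayes; R 4.3.3) and no block, with Benjamini-Hochberg adjustment over 11748 genes and a threshold of 0.05. The fit was tested on simulated data.

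The 10 genes and the lists were chosen with earlier results of these data known. Named beside the 10 were genes of the wider list past the threshold or else its 8 with the lowest p, and the 3 genes most like Txnrd1 and Srxn1, of which 1 is not reported here. Alternatives were other scalings, normexp correction (offset 50, on median signals), the value table, other filters, the mean over probes, replicate and slide blocks, trend and robust settings, a threshold of 0.1, and leaving out each array. The slide block and leaving out corn oil replicate 2 gave the same fitted differences, since that array was alone on its slide. The number of arrays limits the precision, and some marker lists rest on few genes.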

Additional observations from a re-analysis of the deposited data

How the results depend on the processing

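Of the 10 genes, 0 passed in limma at the main settings and 1, Txn1, passed after normexp correction, with trend and robust settings or at a threshold of 0.1; leaving out single arrays gave 0 to 2, the 2 being Txn1 and Srxn1 without treated replicate 2. The count whose treated arrays all lay higher was 7 at the main settings, where 20.1% of all genes did so. Under quantile scaling it was 4, against 12.4% of all genes. Spike-in scaling left 1, against 1.32%. There Txnip lay lower on every treated array, as did 25.5% of all genes, so that 2 of the 10 did not overlap. Without single arrays the count that lay higher was 7 to 8. The median log2 difference of the 10 was 0.39, and 0.20 (quantile), 0.066 (spike-in), 0.32 (normexp), 0.33 (mean over probes), 0.32 (slide block) and 0.32 to 0.40 without single arrays. The wider list had a median of 0.023 (quantile) and -0.21 (spike-in), and 10 to 15 genes without overlap when single arrays were left out. Groups with fewer arrays separate more easily. The share of all genes without overlap is not given for single arrays left out, so neither list's counts there can be set against it. Over all genes, 3 passed at the main settings, 9 with spike-in scaling, 56 with normexp, 69 with trend and robust settings, 132 at a threshold of 0.1, 0 with no filter, with the mean over probes, the replicate block or the slide block, and 0 to 70 without single arrays (0 when a corn oil array was left out, 21 for treated replicate 1 and 70 for treated replicate 2). Where 0 passed in limma, 1533 to 3496 genes had an unadjusted p under 0.05. Genes higher made up 1679 of 2535 at an unadjusted p under 0.05, 967 of 2087 after quantile normalization, 1941 of 2637 after median scaling, 119 of 2541 after spike-in scaling and 2116 of 2712 after normexp correction. The cause of these shifts was not tested. The labels do not say whether a replicate number pairs animals across the groups. Correlations of same-numbered arrays were 0.0065, -0.0502 and -0.032 for replicates 1, 2 and 3, against -0.0253 to 0.0509 for the other pairs. Those of replicates 2 and 3 lay below all the other pairs. These values cannot settle the pairing, since all are small and the numbering differs between the scanner files and the value table. With the replicate block 0 of the 10 genes passed, as without it.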
